A study of Mus musculus with 17 samples.

Results

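The lipid-associated macrophage genes are 10 mouse genes, *Trem2*, *Cd9*, *Cd63*, *Gpnmb*, *Spp1*, *Lgals3*, *Mmp12*, *Itgax*, *Atp6v0d2* and *Lipa*, that mark macrophages which take up lipid in fat. They were taken by name from a list and were found by Ensembl identifier among the 55401 genes of the series. RNA-seq was done on whole pWAT (perigonadal white adipose tissue, a visceral fat pad next to the gonads), with 1 library per mouse. All mice were of the C57BL/6J strain and ate standard chow. The groups were 5 WT females, 5 U9-KO females, 3 WT males and 4 U9-KO males. U9-KO mice lack all 5 exons of the long non-coding RNA gene *U90926*, and WT and U9-KO mice were littermates from crosses of heterozygotes. Tissue was taken at 16 weeks of age by the methods, while the phenotyping schedule ran to 19 weeks. The comparison asked whether loss of *U90926* changed the tissue, here its lipid-handling macrophages, in either sex on a normal diet.

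Lipid-associated macrophages gather around dying adipocytes when fat expands, engulf the lipid that is released and break it down in their lysosomes. The surface receptor TREM2 binds lipids and lipoproteins and signals through the adaptor encoded by *Tyrobp* and the kinase encoded by *Syk*, and it drives much of this gene programme. The programme joins cell surface proteins, secreted proteins and lysosomal proteins, and several of its genes are also used by other cells, such as *Cd63*, *Cd9* and *Lipa*.

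The values are whole numbers that the authors made from read counts by dividing each library by its size factor, called normalized counts here. Read depth is thus not known. The normalized counts of a library summed to between 20243688 and 28620744 (females) or 22024872 and 23916425 (males). The sexes appear to have been scaled separately, which put females 1.08-fold above males for the typical gene, so levels were compared between the sexes only as a description. *U90926* was listed at 1 normalized count in WT female 3, at 1 in WT male 2 and at 0 in all other mice, so it gave no check of the genotype labels. The adipocyte markers summed to at least 105513 normalized counts in every mouse and the 10 macrophage markers to at least 13062. The 10 ovary markers summed to between 3643 and 138763 in females and to at most 450 in males, and WT female 4 and U9-KO female 1 held the most. Macrophage genes in whole tissue cannot tell fewer macrophages from less RNA per macrophage.

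None of the 10 genes passed the test between U9-KO and WT mice in females or in males. In each sex and for each gene, the values of the U9-KO mice overlapped those of the WT mice. In females 4 genes had a higher and 6 a lower mean log2 value in U9-KO mice, and in males all 10 had a lower one. The tests were made with limma on log2(normalized count + 1) over all genes that passed a filter on low values, which all 10 genes did in both sexes, and fold changes are on that scale. The share of all genes with an adjusted p under 0.05 was 0% in females, 0% in males, 0% with both sexes in 1 fit and 0% for the sex-by-genotype interaction. The share whose U9-KO and WT values did not overlap was 0.238% in females and 7.6% in males, against 0 of 10 genes in each sex.

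**Figure D1:**
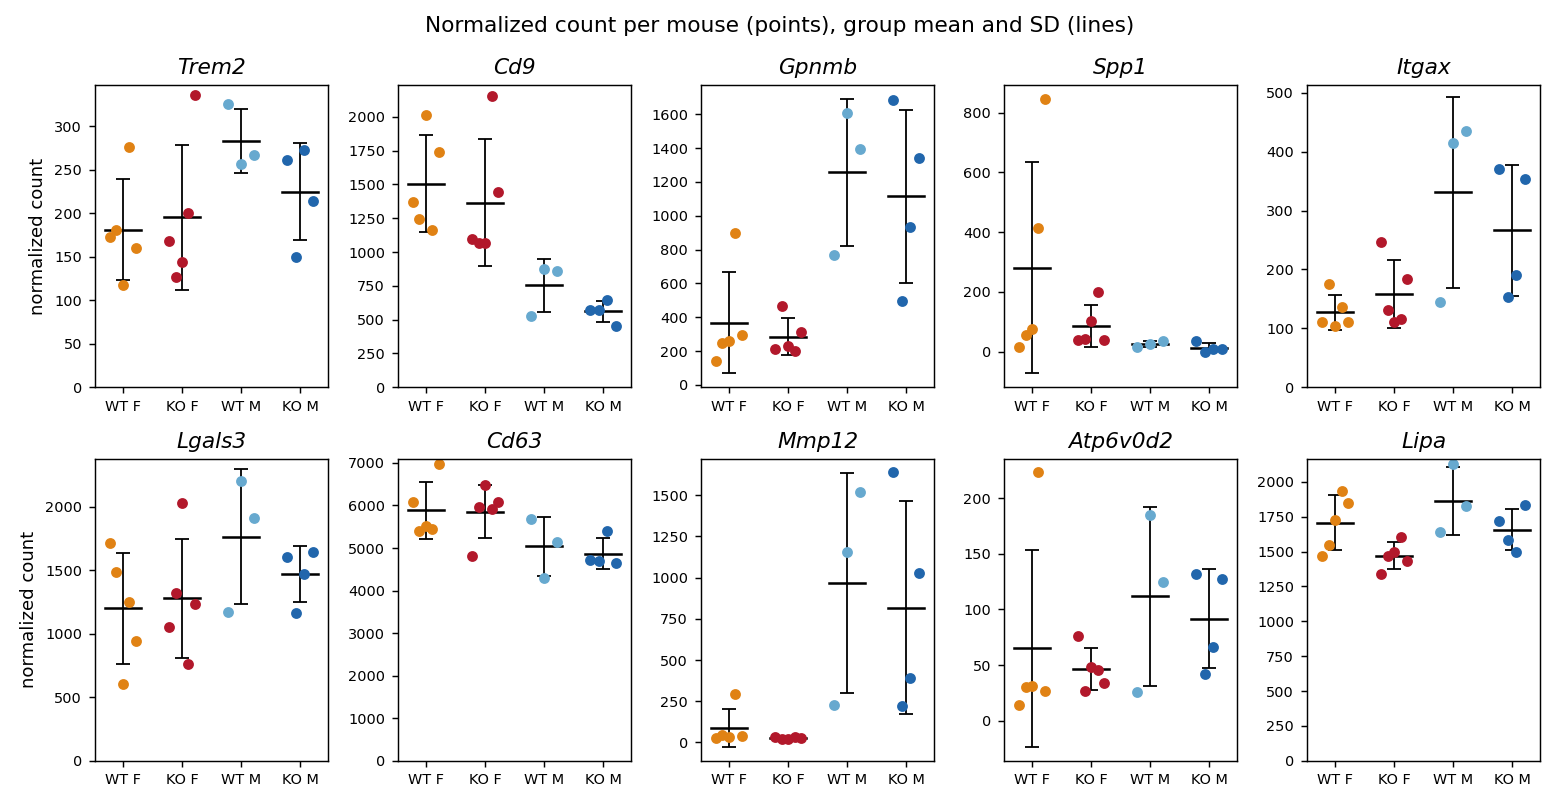
Normalized count of each of the 10 genes (vertical axes, starting at or below 0) in each mouse, by group (WT F, KO F, WT M and KO M for WT and U9-KO females and males), with the group mean (horizontal line) and SD (bars). U9-KO and WT points overlap in every panel and both sexes; *Mmp12*, *Gpnmb* and *Itgax* reach higher in males and *Cd9* is higher in all 10 females than in all 7 males.

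*Trem2* (ENSMUSG00000023992, chr17:48346401-48354147 of GRCm38, plus strand) encodes the receptor itself. It had 172, 180, 117, 276 and 160 normalized counts in WT females 1 to 5 and 168, 127, 144, 200 and 336 in U9-KO females 1 to 5. It had 325, 256 and 267 in the WT males and 261, 150, 273 and 214 in the U9-KO males. The highest female was a U9-KO mouse, the highest male a WT mouse and the lowest male a U9-KO mouse. The log2 fold change of U9-KO over WT was 0.07 ± 0.28 (SE) in females and -0.36 ± 0.20 in males, where the limma adjusted p was 0.683. The 95% confidence intervals were -0.53 to 0.68 for females and -0.80 to 0.08 for males.

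The genes of the TREM2 pathway had a mixed direction in females and lower means in U9-KO males. Of 8 genes (*Tyrobp*, *Hcst*, *Syk*, *Plcg2*, *Inpp5d*, *Grb2*, *Adam10* and *Adam17*), 3 were higher and 5 lower in U9-KO females and none had an unadjusted p under 0.05, a level that 2.23% of all genes reached. In males all 8 were lower, with a median of -0.32 on the log2 scale, and 3 had an unadjusted p under 0.05, a level that 7.6% of all genes reached. Without WT male 2, 2 of the 8 were higher and 6 lower, the median was -0.16 and 3 were still under that level. In the fit of all males these 3 were *Inpp5d*, a phosphatase that restrains TREM2 signals (-0.47 ± 0.12), *Plcg2*, the phospholipase downstream of the receptor (-0.56 ± 0.16), and *Syk* (-0.54 ± 0.18). *Syk* had 730, 1395 and 934 normalized counts in WT males and 666, 729, 677 and 629 in U9-KO males, so every U9-KO male lay below every WT male. No gene of the pathway passed adjustment over all genes, where the limma adjusted p was 0.612 for each of the 3. *Grb2* and *Adam10*, the most abundant of the list, differed by -0.04 ± 0.08 and -0.13 ± 0.11 in males.

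Both tetraspanins among the 10 genes organise other proteins in membranes, *Cd9* at the cell surface and *Cd63* in late endosomes and lysosomes. *Cd9* (ENSMUSG00000030342, chr6:125460266-125494791, minus strand) had 1371, 1244, 2011, 1164 and 1740 normalized counts in WT females and 1095, 1070, 1068, 2152 and 1446 in U9-KO females. In males it had 524, 875 and 860 in WT and 569, 574, 645 and 453 in U9-KO mice. WT males 2 and 3 stood above all 4 U9-KO males, while WT male 1 lay among them. On the log2 scale U9-KO females differed from WT by -0.17 ± 0.21 and U9-KO males by -0.40 ± 0.18, where *Cd9* had the lowest p of the 10 genes (limma adjusted p = 0.655). *Cd63* (ENSMUSG00000025351, chr10:128900989-128912822, plus strand) had between 5405 and 6965 normalized counts in WT females and between 4808 and 6482 in U9-KO females. It had 5674, 4296 and 5137 in WT males and 4714, 4695, 5403 and 4654 in U9-KO males. Its log2 fold change was -0.01 ± 0.11 in females, with a 95% confidence interval of -0.24 to 0.23, and -0.04 ± 0.10 in males, with an interval of -0.27 to 0.19. Among 6 other tetraspanins, 5 were lower in U9-KO males, 3 of them with an unadjusted p under 0.05, beside 7.6% of all genes. These were *Cd37* (-0.54 ± 0.19) and *Cd53* (-0.39 ± 0.15), which are made by leukocytes, and *Tspan4* (-0.27 ± 0.10). The abundant *Cd81* and *Cd151* differed by -0.05 ± 0.07 and -0.04 ± 0.09. Without WT male 2 none of the 6 had an unadjusted p under 0.05.

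*Gpnmb* (ENSMUSG00000029816, chr6:49036546-49070929, plus strand) encodes a membrane glycoprotein of macrophages that digest lipid and debris. It had 143, 250, 260, 896 and 295 normalized counts in WT females and 213, 466, 230, 203 and 312 in U9-KO females. It had 769, 1606 and 1394 in WT males and 1683, 495, 934 and 1343 in U9-KO males. WT female 4 stood far above the other females, and both the lowest and the highest male were U9-KO mice. Log2 fold changes were -0.15 ± 0.41 (females) and -0.25 ± 0.38 (males). Without WT female 4 the female value became 0.24 ± 0.28.

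Of the secreted proteins, osteopontin, galectin-3 and macrophage elastase, the elastase and osteopontin genes varied most between mice. *Mmp12*, which encodes the elastase (ENSMUSG00000049723, chr9:7344381-7369499, plus strand), had 25, 46, 31, 293 and 41 normalized counts in WT females and 35, 24, 21, 32 and 28 in U9-KO females. It had 225, 1158 and 1521 in WT males and 1638, 219, 391 and 1026 in U9-KO males. Males thus fell into a low set of 3 mice and a high set of 4, and each set held both genotypes. The log2 fold change came to -0.93 ± 0.56 for females and -0.25 ± 0.75 for males. Without WT female 4 the WT female mean fell from 87.2 ± 115 (SD, n = 5) to 35.8 ± 9.5 (n = 4), beside 28.0 ± 5.70 (n = 5) in U9-KO females, and the log2 fold change was -0.33.

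*Spp1*, the osteopontin gene (ENSMUSG00000029304, chr5:104435118-104441050, plus strand), had 14, 55, 77, 414 and 847 normalized counts in WT females and 38, 42, 103, 201 and 40 in U9-KO females. In males it had 15, 27 and 35 in WT and 36, 0, 8 and 10 in U9-KO mice. The female values spanned a 60.5-fold range, with WT females 4 and 5 at the top. On the log2 scale U9-KO females differed from WT by -0.80 ± 0.96 and U9-KO males by -1.70 ± 0.98, the latter resting on counts of 36 or less and on a mouse at 0. The female value was -0.089 without WT female 5, -0.35 without WT female 4 and -1.54 without WT female 1. Of 7 osteopontin receptor genes, all 7 were lower in U9-KO mice in both sexes. Only *Itga4*, an integrin of leukocytes, had an unadjusted p under 0.05 (-0.52 ± 0.16 in males), beside 7.6% of all genes. The abundant *Itgb1* and *Itgb5* differed by -0.07 ± 0.11 and -0.07 ± 0.12 in males. Without WT male 2, U9-KO males had 4 of the 7 higher and 3 lower.

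*Lgals3*, the galectin-3 gene (ENSMUSG00000050335, chr14:47367751-47386160, plus strand), had 1714, 1491, 607, 1253 and 946 normalized counts in WT females and 1053, 1321, 2029, 761 and 1233 in U9-KO females. It had 1175, 2204 and 1915 in WT males and 1606, 1161, 1475 and 1644 in U9-KO males. The U9-KO values lay mostly inside the WT range, with a log2 fold change of 0.11 ± 0.30 in females and -0.23 ± 0.20 in males. Among 11 other matrix protease and inhibitor genes, the 9 tested in males were 2 higher and 7 lower in U9-KO mice. *Mmp19* (0.27 ± 0.10) was higher and the inhibitors *Timp1* (-0.81 ± 0.31) and *Timp2* (-0.31 ± 0.13) were lower, each with an unadjusted p under 0.05 in males. In males 7.6% of all genes were under that level, and none of these genes passed adjustment over all genes. *Timp1* had 48, 46 and 34 normalized counts in WT males and 17, 32, 32 and 18 in U9-KO males. *Timp3*, also abundant, differed by -0.05 ± 0.13.

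*Itgax* encodes the integrin chain known as CD11c (ENSMUSG00000030789, chr7:128129547-128150657, plus strand), which pairs with the product of *Itgb2*. It had 111, 176, 104, 136 and 110 normalized counts in WT females and 247, 131, 111, 115 and 184 in U9-KO females. It had 144, 415 and 435 in WT males and 371, 153, 190 and 353 in U9-KO males. As with *Mmp12*, the same 3 males were low and the same 4 high. Log2 fold changes were 0.26 ± 0.24 (females) and -0.25 ± 0.42 (males). All 4 other genes of this integrin family (*Itgb2*, *Itgam*, *Itgal* and *Itgad*) were lower in U9-KO males. The difference was -0.46 ± 0.22 for *Itgb2* and -0.56 ± 0.20 for *Itgam*. Only *Itgam* had an unadjusted p under 0.05, beside 7.6% of all genes, and it did not without WT male 2 or without WT male 3.

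The lysosomal genes encode a subunit of the proton pump that acidifies the lysosome (*Atp6v0d2*) and the acid lipase that splits cholesteryl esters and triglycerides there (*Lipa*). *Atp6v0d2* (ENSMUSG00000028238, chr4:19876841-19922605, minus strand) had 14, 30, 31, 223 and 27 normalized counts in WT females and 76, 27, 48, 46 and 34 in U9-KO females. It had 26, 185 and 125 in WT males and 132, 42, 66 and 127 in U9-KO males. WT female 4 again stood alone, and U9-KO mice differed from WT by 0.18 ± 0.61 (females) and -0.04 ± 0.62 (males) on the log2 scale. The other 15 pump genes had a narrow spread, with 14 higher in U9-KO females and 9 in U9-KO males. None of them had an unadjusted p under 0.05. Of these, *Atp6v0c* and *Atp6ap1* were the most abundant and differed by 0.08 ± 0.12 and 0.05 ± 0.10 in females.

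*Lipa* (ENSMUSG00000024781, chr19:34492318-34527474, minus strand) had 1469, 1546, 1728, 1934 and 1851 normalized counts in WT females and 1342, 1471, 1500, 1604 and 1434 in U9-KO females. It had 1642, 2126 and 1826 in WT males and 1721, 1583, 1494 and 1832 in U9-KO males. It was the only one of the 10 genes with an unadjusted p under 0.05 in limma, in females at a log2 fold change of -0.21 ± 0.09 (adjusted p = 1). In females 2.23% of all genes were under that level. None of the 10 was under it once WT female 3 or 5, or U9-KO female 1, 2, 3 or 5, was left out. With no filter on low values none was either. The two-sided exact permutation test of the normalized counts of *Lipa* gave p = 0.0635 in females and p = 0.229 in males. With both sexes in 1 fit and sex as a covariate it was -0.19 ± 0.07 (limma adjusted p = 0.938) and again under an unadjusted p of 0.05, where 4.02% of all genes had an unadjusted p under 0.05. Of 14 other lysosomal genes, 5 were higher and 9 lower in U9-KO females and 3 higher and 11 lower in U9-KO males. Within a sex only *Hexa*, which degrades gangliosides, had an unadjusted p under 0.05, in males (-0.24 ± 0.08), where 7.6% of all genes did. With both sexes in 1 fit 2 of the 14 did, beside 4.02% of all genes. The abundant *Psap* and *Lamp1* differed by -0.11 ± 0.10 and 0.01 ± 0.08 in males. Of the 4 genes of the MITF and TFE factors that drive lysosomal genes, all 4 were lower in U9-KO males with none under an unadjusted p of 0.05, and *Tfe3* and *Mitf* differed by -0.04 ± 0.08 and -0.24 ± 0.15.

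**Figure D2:**
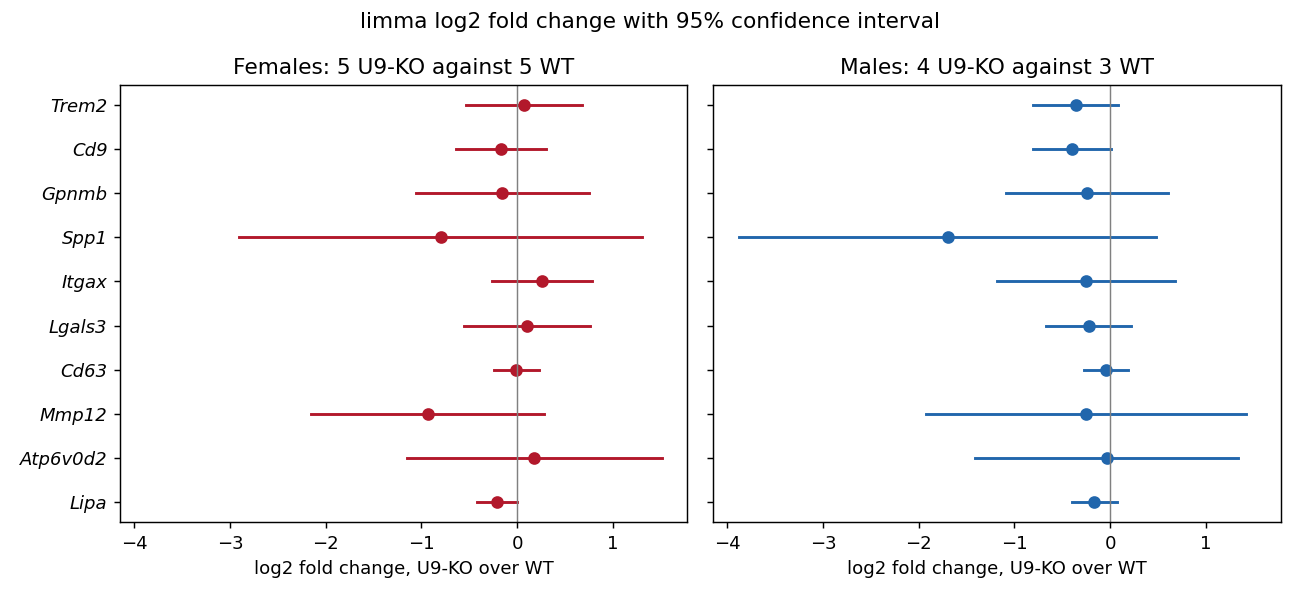
Log2 fold change of U9-KO over WT (horizontal axes) from limma for the 10 genes in females and in males, as points with 95% confidence intervals. All 10 male points lie below 0 and every male interval includes 0; in females only the interval of *Lipa*, from -0.42 to -0.0012, does not reach above 0.

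The exact permutation tests likewise passed none of the 10 genes, with no adjustment over the 10. In females the lowest exact p after that of *Lipa* was 0.103, for *Mmp12*, and the smallest that 5 against 5 mice can give is 0.0079. In males, with only 3 against 4 mice, the lowest exact p was 0.2, for *Cd9*. The median log2 fold change of the 10 genes was -0.08 in females and -0.25 in males, beside a median of all genes that rounds to 0.00 in each sex. Single mice moved both medians. In females it was 0.05, with 5 genes higher and 5 lower, without WT female 4, -0.02 without WT female 5 and -0.18 without WT female 1. In males it was -0.60 without WT male 1 and -0.05 without WT male 2, and 3 of the 10 genes were higher in U9-KO males once WT male 3 or U9-KO male 2 was left out. Leaving out WT male 1 called 71 genes across the transcriptome, none of the 10 among them. The genotype effect was not shown to differ between the sexes for any of these genes. None had an unadjusted p under 0.05 for the interaction, against 3.46% of all genes, and the interaction terms ran from -0.90 ± 1.54 (*Spp1*) to 0.68 ± 1.01 (*Mmp12*).

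Genes that mark macrophages in general had lower means in U9-KO males. Of 10 macrophage markers, all 10 had a lower mean in U9-KO males, with a median of -0.41 on the log2 scale, and 6 had an unadjusted p under 0.05, beside 7.6% of all genes. In 5 of the 10, beside 7.6% of all genes again, *Csf1r*, *Mertk*, *Lyz2*, *C1qb* and *C1qc*, every U9-KO male lay below every WT male. *Lyz2*, the lysozyme gene of myeloid cells, had 12198, 20256 and 14780 normalized counts in WT males and 10212, 10923, 8256 and 9838 in U9-KO males (-0.66 ± 0.16). *Csf1r*, the receptor for the main macrophage growth factor, had 4012, 6263 and 4399 in WT males and 3156, 3844, 2822 and 3926 in U9-KO males (-0.50 ± 0.16). *Mertk*, a receptor for dying cells, and *C1qb*, of complement, differed by -0.40 ± 0.11 and -0.45 ± 0.13. WT male 2 was the highest for *Lyz2* and *Csf1r*, and without it 5 of the 10 had an unadjusted p under 0.05 and the median was -0.27. None of the 10 markers passed adjustment over all genes in limma (adjusted p = 0.612 for *Lyz2*). In females 1 was higher and 9 lower, none with an unadjusted p under 0.05. The sex-by-genotype interaction had an unadjusted p under 0.05 for 2 of the 10 markers, beside 3.46% of all genes. Its adjusted p was under 0.05 for none of the markers.

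Resident macrophage markers and markers of monocytes and dendritic cells were mostly lower in U9-KO males too. Of 10 resident markers 9 were lower. Only *Vsig4* had an unadjusted p under 0.05, beside 7.6% of all genes. It had 65, 124 and 47 normalized counts in WT and 26, 31, 36 and 15 in U9-KO males. The abundant *F13a1* and *Mrc1* differed by -0.30 ± 0.20 and -0.23 ± 0.20. Without WT male 2, 4 of the 10 were higher and 6 lower. All 8 monocyte and dendritic cell markers were lower in U9-KO males, with *Ly6c2* (-0.44 ± 0.15) and *Cd209a* (-0.56 ± 0.21) under an unadjusted p of 0.05 (7.6% of all genes were). Without WT male 2, 1 of the 8 was under that level, and without WT male 3 none was. The most abundant of these, *Ccr2* and *Zbtb46*, differed by -0.43 ± 0.20 and -0.01 ± 0.12. In females 6 of the 8 were higher and 2 lower in U9-KO mice. Only *Ly6c2* (0.52 ± 0.23) had an unadjusted p under 0.05 there, beside 2.23% of all genes. The sex-by-genotype interaction had an unadjusted p under 0.05 for 3 of the 8, beside 3.46% of all genes, and an adjusted p under 0.05 for 0. B cell markers moved with the male values of these lists. All 4 were lower in U9-KO males with an unadjusted p under 0.05, beside 7.6% of all genes. Without WT male 2, 1 of the 4 was under that level. The sum of the 4 was 295 to 730 in WT and 214 to 243 in U9-KO males. The part of the B cells in the macrophage values was not tested.

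Other genes of the lipid-associated programme had no shared direction. Of 18 further genes, 5 were higher and 13 lower in U9-KO females and 8 higher and 10 lower in U9-KO males, with medians of -0.06 and -0.02. The gene with the lowest p was *Plin2*, a coat protein of lipid droplets in adipocytes and macrophages, which had 6075, 4546 and 5103 normalized counts in WT males and 7235, 6952, 6569 and 6459 in U9-KO males (0.39 ± 0.10, limma adjusted p = 0.612). *Pld3*, a lysosomal nuclease, was lower (-0.32 ± 0.12). *Lpl* and *Apoe*, the most abundant, differed by 0.26 ± 0.24 and -0.28 ± 0.16 in males. Of 6 genes of cholesterol and lipid handling, U9-KO males had 2 higher and 4 lower. The nuclear receptor gene *Nr1h2* (-0.21 ± 0.07) and *Mylip* (-0.22 ± 0.09) had an unadjusted p under 0.05, beside 7.6% of all genes. The abundant *Abca1* and *Nr1h3* differed by -0.15 ± 0.11 and 0.10 ± 0.15.

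**Figure D3:**
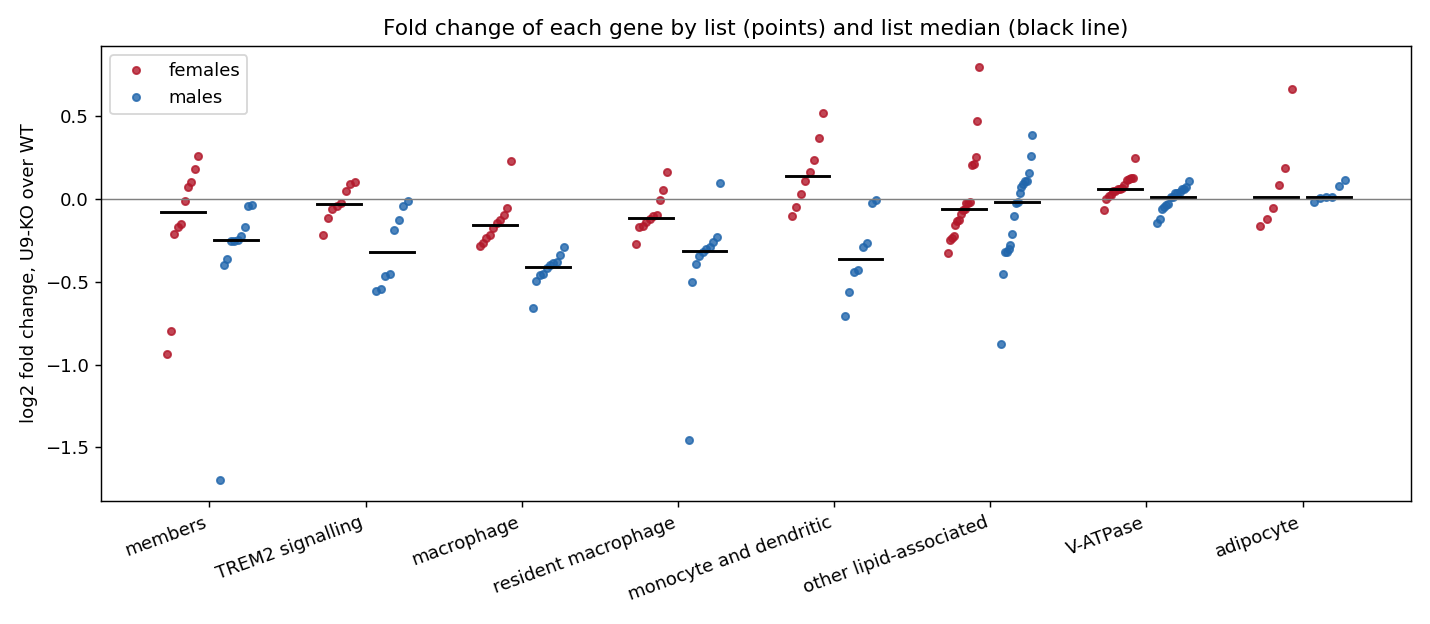
Log2 fold change of U9-KO over WT (vertical axis) of each gene of 8 lists in females (red) and males (blue), with the list median as a black line. The male medians of the macrophage (-0.41), monocyte and dendritic (-0.36), TREM2 signalling (-0.32) and resident macrophage (-0.31) lists lie below that of the 10 genes (-0.25) with all males; without WT male 2 the resident macrophage (-0.02) median lies above that of the 10 genes (-0.05). The proton pump and adipocyte lists stay near 0.

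The mice of 1 group differed from each other far more in some of these genes than in most genes. Over the log2 values of genes with a mean of at least 10, the SD within groups of males was above that of 99.4% of genes for *Mmp12*, 99.5% for *Spp1*, 98.9% for *Atp6v0d2*, 96.4% for *Itgax* and 95.3% for *Gpnmb*. *Lipa* and *Cd63* varied less than most genes, at the 41.3 and 40.0 percentiles in males and the 15.1 and 21.4 percentiles in females. In females *Spp1* (98.6), *Atp6v0d2* (95.3) and *Mmp12* (94.1) were again among the most variable. For *Atp6v0d2* and *Mmp12* this female spread included WT female 4, at 223 and 293 normalized counts. The other females had 14 to 76 and 21 to 46, and the percentiles were not recomputed without this mouse. The male percentile of *Spp1* came from counts of 0 to 36, near the floor.

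In the 7 males, 5 of the genes went up and down together from mouse to mouse. After the mean of each genotype was taken off, Pearson's r across the 7 males was 0.861 to 0.984 for the 10 pairs among *Gpnmb*, *Itgax*, *Lgals3*, *Mmp12* and *Atp6v0d2*, with *Itgax* and *Mmp12* the closest. These 5 were singled out after their values were seen, and the 7 points share their libraries. *Lipa* followed them at r of 0.695 to 0.853 and *Spp1* at 0.621 to 0.915. *Trem2* did not move closely with them (0.02 to 0.43), and *Cd63* ran the other way (-0.71 to -0.43). In the 10 females the same 10 pairs ranged from -0.08 to 0.94. The highest was *Mmp12* with *Atp6v0d2*, both of which had their highest female value in WT female 4, and *Spp1* with *Lipa* had r = 0.909.

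**Figure D4:**
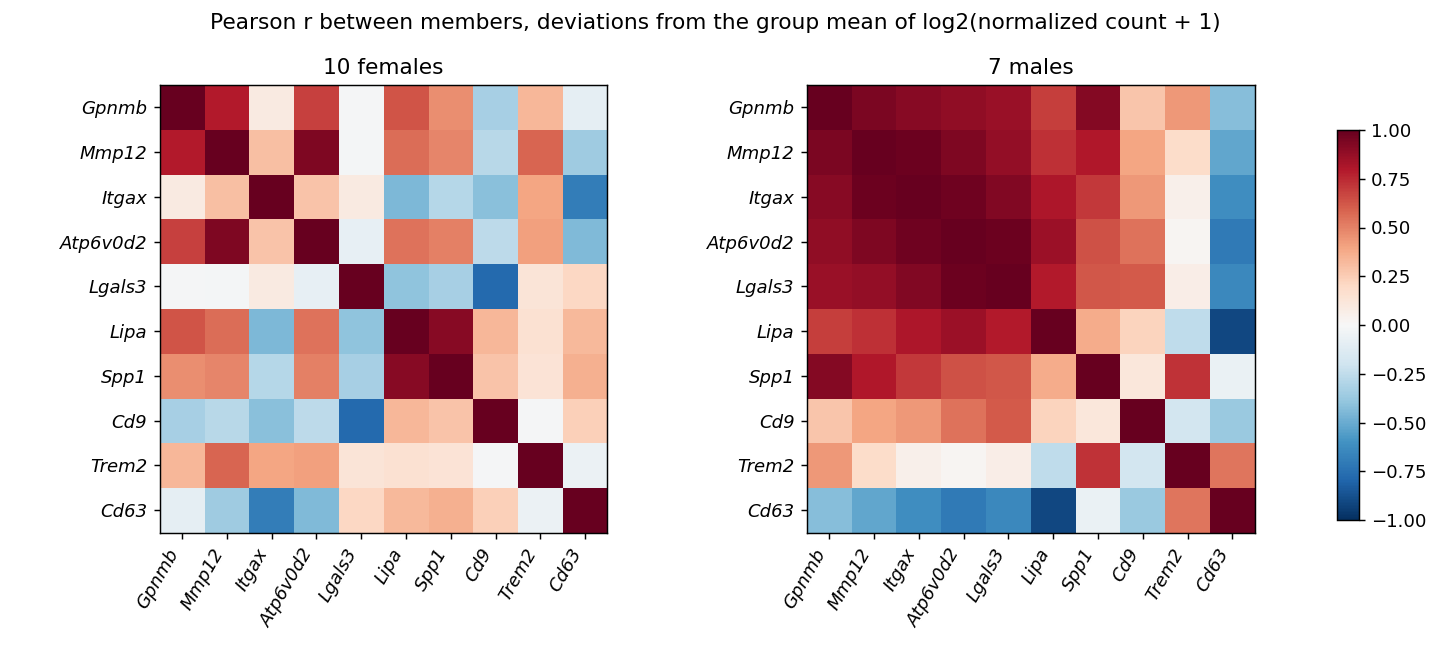
Pearson r (colour, from -1 to 1) between each pair of the 10 genes, over the deviations of 10 females and of 7 males from the mean of their own group on the log2(normalized count + 1) scale. The block of 5 genes at the upper left is dark red in males (r of 0.861 to 0.984) and mixed in females, and *Trem2* stands outside it.

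The sequences before the start sites of genes that moved together in males are shown for the 3 of the 5 genes whose RefSeq promoter window holds an AP-1 motif, a site of the FOS and JUN factors. The windows, from RefSeq on GRCm38.p6, run from 250 bases before to 50 after a start site, and 9 of the 10 genes had one or more among 11 windows (*Atp6v0d2* had none). The sequences are printed 5′ to 3′ on the strand of the gene, with motifs in capitals. *Itgax* has TGAGTCA from 56 to 50 bases before the start site (chr7:128129300-128129599, plus strand). *Gpnmb* has the reverse form TGACTCA from 8 to 14 bases after it (chr6:49036268-49036567, plus strand). *Mmp12* has 2 windows. The one at chr9:7347124-7347423 (plus strand) has the reverse form of the M-box, CACATG, from 83 to 78 and TGAGTCA from 44 to 38 bases before the start site. *Trem2*, which did not move with the 5, is shown beside them and holds none of the motifs, and neither does the window of *Lgals3*, which did move with them (*Trem2*, chr17:48346151-48346450, plus strand).
Itgax: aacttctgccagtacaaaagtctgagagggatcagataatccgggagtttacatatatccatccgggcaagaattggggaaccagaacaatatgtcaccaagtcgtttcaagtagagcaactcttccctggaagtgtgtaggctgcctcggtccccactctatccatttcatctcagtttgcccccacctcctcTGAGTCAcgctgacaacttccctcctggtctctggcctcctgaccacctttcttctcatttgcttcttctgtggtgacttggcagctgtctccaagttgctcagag
Gpnmb: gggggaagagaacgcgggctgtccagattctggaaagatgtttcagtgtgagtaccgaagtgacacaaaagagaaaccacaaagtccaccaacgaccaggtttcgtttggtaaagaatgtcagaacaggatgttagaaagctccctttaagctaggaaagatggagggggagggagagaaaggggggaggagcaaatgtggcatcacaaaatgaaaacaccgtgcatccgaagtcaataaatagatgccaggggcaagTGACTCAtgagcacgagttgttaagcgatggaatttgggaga
Mmp12: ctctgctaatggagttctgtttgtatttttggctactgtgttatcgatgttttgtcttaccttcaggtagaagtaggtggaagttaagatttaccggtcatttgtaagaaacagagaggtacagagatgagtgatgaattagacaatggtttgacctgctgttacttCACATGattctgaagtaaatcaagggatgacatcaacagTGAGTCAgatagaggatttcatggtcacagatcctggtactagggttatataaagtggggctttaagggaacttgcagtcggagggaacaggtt
Trem2: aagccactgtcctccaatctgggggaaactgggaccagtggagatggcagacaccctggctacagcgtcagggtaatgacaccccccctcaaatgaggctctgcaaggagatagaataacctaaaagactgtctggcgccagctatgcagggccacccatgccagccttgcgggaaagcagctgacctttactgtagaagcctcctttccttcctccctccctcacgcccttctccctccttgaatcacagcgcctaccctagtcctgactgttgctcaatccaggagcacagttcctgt

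Each motif was searched on both strands in all 32851 promoter windows of the table. The AP-1 motif TGAGTCA was in 5.20% of them, and in 3 of the 11 windows of these genes. The PU.1 motif GAGGAAGT, of the main myeloid factor, was in 3.20% of all windows and in 1 window each of *Spp1* and *Mmp12* (the other *Mmp12* window, chr9:7344147-7344446). The M-box CATGTG was in 14.2% of all windows and in those of *Cd9* and *Mmp12*. The E-box CACGTG was in 7.15% of all windows and its longer form TCACGTGA, which contains it, in 0.974%, and neither was in any window of these genes. A match gives the letters in the window and says nothing of binding there.

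The same males were ordered by *Lep*, the leptin gene, which adipocytes raise as they fill with lipid. From the lowest to the highest *Lep* (20328, 23259, 25196, 28407, 33761, 35738 and 37426 normalized counts), *Gpnmb* was 495, 769, 934, 1394, 1343, 1606 and 1683. Over the same mice *Mmp12* was 219, 225, 391, 1521, 1026, 1158 and 1638, and *Trem2* was 150, 325, 273, 267, 214, 256 and 261. The order of mice was U9-KO male 2, WT male 1, U9-KO male 3, WT male 3, U9-KO male 4, WT male 2 and U9-KO male 1, so the genotypes alternated along it. On the log2 scale *Gpnmb* correlated with *Lep* at Pearson's r = 0.952 (exact permutation p = 0.000595, 0.0119 adjusted over 20 relations) and Spearman's rho = 0.964 (exact permutation p = 0.00278, adjusted 0.0556). Without the 2 males farthest from the median of *Lep*, r was 0.919. *Mmp12* gave r = 0.894 and rho = 0.893 (exact permutation p = 0.0161 and 0.0123, adjusted 0.0935 and 0.0615), and *Atp6v0d2* r = 0.875 and rho = 0.929 (exact permutation p = 0.0125 and 0.00675, adjusted 0.0935 and 0.0583). Without the same 2 males, r was 0.803 and 0.905. *Trem2* gave r = 0.288 and rho = -0.107 (exact permutation p = 0.570 and 0.840, adjusted 0.633 and 0.884), and without the same 2 males its r was -0.809. With the mean of each genotype taken off, r in males was 0.967 for *Gpnmb*, 0.897 for *Mmp12*, 0.875 for *Atp6v0d2* and 0.326 for *Trem2*. Permuting the mice within each genotype gave exact p = 0.0069, 0.0417, 0.0069 and 0.604 (adjusted 0.0694, 0.119, 0.0694 and 0.671 over 20 relations), where 0.0069 is the smallest that 3 and 4 mice allow. *Lep* was chosen after its values were seen. The 20 relations do not count the other genes from which it could have been chosen, so the p-values of this paragraph are given as a description only. In the 10 females *Gpnmb* gave r = -0.446 and rho = -0.248 (permutation p = 0.198 and 0.489, adjusted 0.264 and 0.612). There *Mmp12* gave r = -0.547 and *Atp6v0d2* r = -0.572 (permutation p = 0.102 and 0.0805, adjusted 0.170 and 0.161). *Lipa* had the lowest r, -0.683 (permutation p = 0.0301, adjusted 0.0935). Of the 10 genes *Lgals3* had the highest r, 0.719, with rho = 0.794 (permutation p = 0.0197 and 0.00875, adjusted 0.0935 and 0.0583). The rest had r of 0.262 (*Itgax*), 0.223 (*Cd63*), -0.0056 (*Trem2*), -0.445 (*Cd9*) and -0.553 (*Spp1*). Without WT females 3 and 4, r was -0.185 for *Mmp12*, -0.529 for *Atp6v0d2* and -0.344 for *Lipa*.

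**Figure D5:**
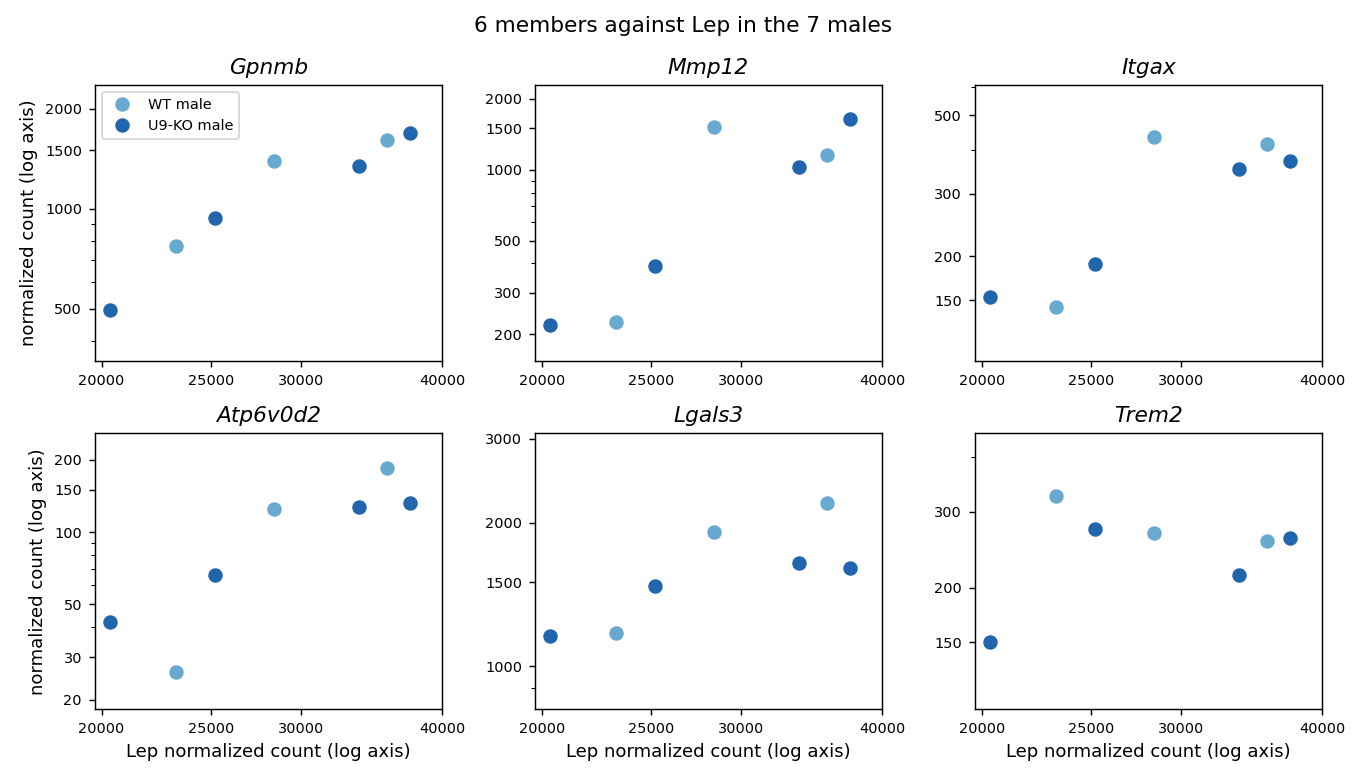
Normalized count of 6 genes against that of *Lep* in the 7 males (both axes logarithmic), with WT males in light blue and U9-KO males in dark blue. *Gpnmb*, *Mmp12*, *Itgax*, *Atp6v0d2* and *Lgals3* are low in the 3 males with the least *Lep* and high in the other 4, with both genotypes in each set, and *Trem2* is not split into these sets.

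Levels differed between the sexes for some of the genes, given here with no test since the sexes appear to have been scaled separately. *Cd9* was the only one of the 10 whose values did not overlap between the sexes, at 1068 to 2152 normalized counts in females and 453 to 875 in males, where 11.8% of all genes did not overlap. The 4 oviduct markers summed to between 104 and 8108 in females and to at most 31 in males. WT female 3 and U9-KO female 4 had the most *Cd9* (2011 and 2152) and the most of the oviduct gene *Ovgp1* (7684 and 1256). WT female 5, next in *Cd9* at 1740, had 24 of *Ovgp1*. The part of oviduct tissue in the *Cd9* values was not tested. *Mmp12* had a median of 31.5 in females and 1026 in males, and its ranges (21 to 293 and 219 to 1638) met only through WT female 4, since the other 9 females had 21 to 46. Male means were 3.60-fold those of females for *Gpnmb*, 2.07-fold for *Itgax* and 1.81-fold for *Atp6v0d2*. *Spp1* was the reverse, with a median of 66.0 in females and 15 in males. *Trem2* (1.33-fold), *Lgals3* (1.29-fold) and *Lipa* (1.10-fold) were slightly higher in males on average and *Cd63* lower (0.842-fold).

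Per kilobase of the main transcript, *Cd63* was the most abundant of the 10 in both sexes (mean 5290 normalized counts per kilobase in females and 4454 in males), above every other gene in every mouse. In females it was followed by *Cd9* (1169), *Lgals3* (874), *Lipa* (535), *Trem2* (173), *Spp1* (122), *Gpnmb* (88.3), *Itgax* (35.2), *Atp6v0d2* (21.9) and *Mmp12* (15.97). Of these neighbours only *Cd63* and *Cd9*, and *Lipa* and *Trem2*, had ranges over the 10 females that did not overlap. *Spp1* was above *Gpnmb* in only 4 of the 10 females, and without WT female 5 their means were 72.6 and 89.3, the other way round. In males the order was *Cd63*, *Lgals3* (1126), *Lipa* (588), *Cd9* (523), *Gpnmb* (317), *Mmp12* (245), *Trem2* (229), *Itgax* (72.8), *Atp6v0d2* (39.6) and *Spp1* (12.4). The ranges of neighbours did not overlap between *Cd63* and *Lgals3*, *Lgals3* and *Lipa*, and *Trem2* and *Itgax*. *Mmp12* was thus the last of the 10 in females and rank 6 in males. With all annotated exons as the length, *Trem2* was at rank 7 in females and rank 8 in males in place of rank 5 and rank 7.

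The genes most like *Trem2* across the 17 mice, after group means were taken off and among 17511 genes with a mean of at least 10, were *Gk* (Pearson's r = 0.811), *Emg1* (0.794), *Dio3* (0.769), *Gm9531* (0.759) and *Cep57l1* (0.758). Those most like the mean of the 10 genes were *Stra6* (0.789), *Tnfrsf4* (0.784), *Saal1* (0.774), *Zfand4* (0.774) and *Tma7-ps* (0.770). These are the highest of many correlations over few mice and are given as a description.

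Some values touch others on the annotation. An exon of *Cd9* overlaps one of *Gm26728* on the opposite strand (at most 7 normalized counts), an exon of *Spp1* overlaps *Gm42793* on the same strand (at most 3) and one of *Mmp12* overlaps *Mmp1b* on the opposite strand (0 in all 17 mice).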

How the data were processed

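Whole pWAT of 17 mice was sequenced from directional, poly(A)-selected libraries. Reads were trimmed by the authors (trim_galore), aligned with STAR (2.7.3a and GRCm38 per the labels), counted per gene with summarizeOverlaps and passed to DESeq2 (1.28.1 per the labels). The deposited score of a gene is its count over the size factor of the library, which the authors rounded to a whole number. Whether counting used strand is not given in the sources used here. A table of all libraries was not used, since it repeats the single libraries. In 2 male libraries the column header gives another replicate number than the label, and the label was followed.

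GENCODE release M21 named 55141 of the 55401 identifiers. Genes were tested where their values in a fit summed to 10 or more (24825 in females, 21930 in males, 26289 in both) with limma 3.58.1 in R 4.3.3 (lmFit, eBayes with trend, log2(normalized count + 1), Benjamini-Hochberg, threshold 0.05). Each of the 29 pairs of mice of 1 group differed in at least 24469 genes. For single genes, exact two-sided permutation tests were run (scipy 1.17.1, Python 3.11.15), and correlations in females with 100000 resamples. Levels per kilobase used the APPRIS principal transcript. The fits were tested on simulated data. Other filters, pseudocounts, scalings, fits and left-out mice were tried. The 10 genes and all lists were chosen with earlier results of these data known. Beside the 10, the text names of each list its 2 most abundant genes and up to 3 with the smallest unadjusted p under 0.05 in either sex, and the 5 genes most like *Trem2* and the 5 most like the mean of the 10. *Lep*, and genes named for values that do not overlap, were chosen after their values were seen.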

Additional observations from a re-analysis of the deposited data

Results flagged for a closer look

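In 4 groups a mouse stood far from the rest of its own group, by the gap to the nearest mouse over the range of the group (Dixon's ratio). WT female 4 had 896 normalized counts of *Gpnmb*, where the other 4 WT females had 143 to 295. The same mouse had 293 of *Mmp12*, where the others had 25 to 46, and 223 of *Atp6v0d2*, where the others had 14 to 31. U9-KO male 3 had 5403 of *Cd63*, where the other 3 U9-KO males had 4654 to 4714. Of 30 groups of 4 or 5 mice examined, 4 stood out in this way, and chance alone gives about 1.5. WT female 4 also had 54629 normalized counts of the ovary gene *Cyp11a1*, a value exceeded only by U9-KO female 1 with 71595, which had 213 of *Gpnmb*, 35 of *Mmp12* and 76 of *Atp6v0d2*. The part of ovary tissue in these values was not tested.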

How the results depend on the processing

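None of the 10 genes was called under any alternative tried. Of the log2 fold changes recomputed, 357 kept their direction and 23 did not. Part of the 357 was fixed in advance. A change of the filter on low values, no trend, a robust fit or 1 fit of all 17 mice cannot move a fold change. A replicate block cannot move it in females either. The 357 is thus no measure of how stable the directions were.

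The count of called genes was 0 in the main fits. It was 1 without the mean-variance trend in females, in males and in both sexes, 1 with a pseudocount of 0.5 and with no filter in both sexes, and 1 with no filter for the interaction. Leaving out 1 mouse gave between 0 and 71 genes in males, the 71 without WT male 1, where the smallest adjusted p of the 10 genes was 0.0804. The causes were not tested.

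Direction turned for some genes when a mouse was left out, also for genes that were not near 0. The log2 fold changes then ran in females from -0.048 to 0.060 for *Cd63*, -0.17 to 0.81 for *Atp6v0d2*, -0.14 to 0.24 for *Trem2*, -0.12 to 0.27 for *Lgals3* and -0.42 to 0.24 for *Gpnmb*. In males they ran from -0.15 to 0.048 for *Cd63*, -1.11 to 0.27 for *Mmp12*, -0.87 to 0.52 for *Atp6v0d2*, -0.77 to 0.023 for *Itgax* and -0.56 to 0.10 for *Gpnmb*. Without WT female 4 and U9-KO female 1, an alternative chosen after seeing the data, *Gpnmb* was 0.33 and *Cd63* 0.034 in females, and 6 of the 10 genes were higher. Quantile normalization gave *Atp6v0d2* 0.019 in males. The exact test of *Atp6v0d2* on the log2 scale in females (p = 0.825) had the other direction than on normalized counts.

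With the replicate number as a replicate block, 0 genes were called in females, in males, in both sexes and for the interaction. Same-numbered mice correlated at -0.43 to 0.12, so no pairing by number was visible in these values. The labels give no litter or cage, so a link of the numbers to these was not tested.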
